A study of Homo sapiens with 9 samples.

Results

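The levels of 9 epithelial genes were followed in COR-L279 cells after JQ1, namely the squamous and basal genes TP63 and KRT15, the simple-epithelium keratins KRT19, KRT8 and KRT18, and the surface and junction genes CEACAM5, EPCAM, CLDN3 and CLDN4. They were taken by gene symbol from the deposited table of normalized counts, and all 9 were among its 17518 genes. COR-L279 is a human small cell lung cancer line that the labels place in the SCLC-N subtype and call wild type. Wild-type COR-L279 cells received DMSO, 0.5 µM JQ1 or 1.5 µM JQ1 for 24 h, and total RNA of 3 biological replicates per group was sequenced, 9 libraries in all, so that each JQ1 dose could be set against DMSO. All groups shared the line, the medium and the length of treatment, and the results hold for this 1 line.

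JQ1 displaces BET proteins, a family of chromatin readers, from acetylated histones. Keratins are the intermediate filaments of epithelial cells and assemble as pairs of a type II and a type I chain. KRT8 with KRT18 or KRT19 is the pair of simple epithelia such as lung alveolus and gut, whereas KRT15 and the transcription factor p63 belong to the basal layer of squamous and airway epithelium. Small cell lung cancer is a neuroendocrine tumour that keeps simple-epithelium keratins and EPCAM, the antigen by which its circulating cells are often captured.

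In DMSO the label of the genes held in part. KRT8, EPCAM, KRT19 and KRT18 were among the well expressed genes, at 113 to 258 FPKM (fragments scaled to transcript length and library size) over the libraries. TP63 and KRT15 were expressed without the classical squamous keratins, without the desmosomal cadherins DSC3 and DSG3, and without IVL. KRT14, DSC3 and IVL were listed at 0 FPKM in every library, and KRT5, KRT6A, KRT17 and DSG3 reached at most 0.07, 0.02, 0.02 and 0.01 FPKM. The line's own markers were abundant, with means of 48242 normalized counts for NEUROD1 and 65807 for INSM1 in DMSO. These levels go against calling the cells squamous, and TP63 and KRT15 are described as single genes.

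Between 60721187 and 88482001 reads per library fell in genes. A set of 3 JQ1 libraries stood apart from the rest, replicate 3 at 0.5 µM and replicates 1 and 2 at 1.5 µM. They held 1476 to 2071 normalized counts of H19, an imprinted noncoding RNA, whereas the remaining 3 JQ1 libraries had 1.04 to 8.22 and the DMSO libraries 63.8 to 82.8. The glucose transporter SLC2A3 was at 390 to 489 normalized counts in them and at 3.52 or less in all other libraries. Of markers of other cells, the 5 fibroblast genes in the table summed to 3097 to 3640 in these 3 libraries, 1545 to 1890 in the remaining JQ1 libraries, and 4569 to 4650 under DMSO. The sum hides a split between genes. In the same order COL3A1 was at 1022 to 1147, 25.8 to 31.8 and 81.1 to 96.4, and LUM at 252 to 366, 1.17 to 4.15 and 27.3 to 44.6. COL1A2, most of the sum, and COL6A3 were below DMSO in every JQ1 library, and COL1A1 overlapped DMSO at both doses. CD3D, a defining marker of T cells, was at 0 FPKM everywhere. The part of these 3 libraries in the results below was measured by leaving them out, which leaves a single library at 1.5 µM. Where nothing else is said, values are the authors' normalized counts, and log2 fold changes are of the normalized count + 1, with the standard error (SE) of a limma fit to all 9 libraries.

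All 9 genes had lower means in JQ1 than in DMSO at both doses, and at 1.5 µM the means were between 1.08-fold (CLDN4) and 34.6-fold (KRT15) lower. Every JQ1 library was below every DMSO library for 8 of 9 genes at 0.5 µM, CLDN4 being the exception, and for 9 of 9 at 1.5 µM. Over all 17514 genes tested, 36.4% at 0.5 µM and 41% at 1.5 µM had no overlap in this direction. At least 2-fold lower were 4 genes at 0.5 µM and 5 at 1.5 µM, against 10.6% and 12.1% of all genes tested. The 9 genes were picked with these levels known, so the counts against DMSO carry no test and nothing is read from their excess over the other genes. The median log2 fold change of the 9 was −0.89 at 0.5 µM and −1.33 at 1.5 µM, and that of all genes tested was −0.010 and −0.003.

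**Figure D1:**
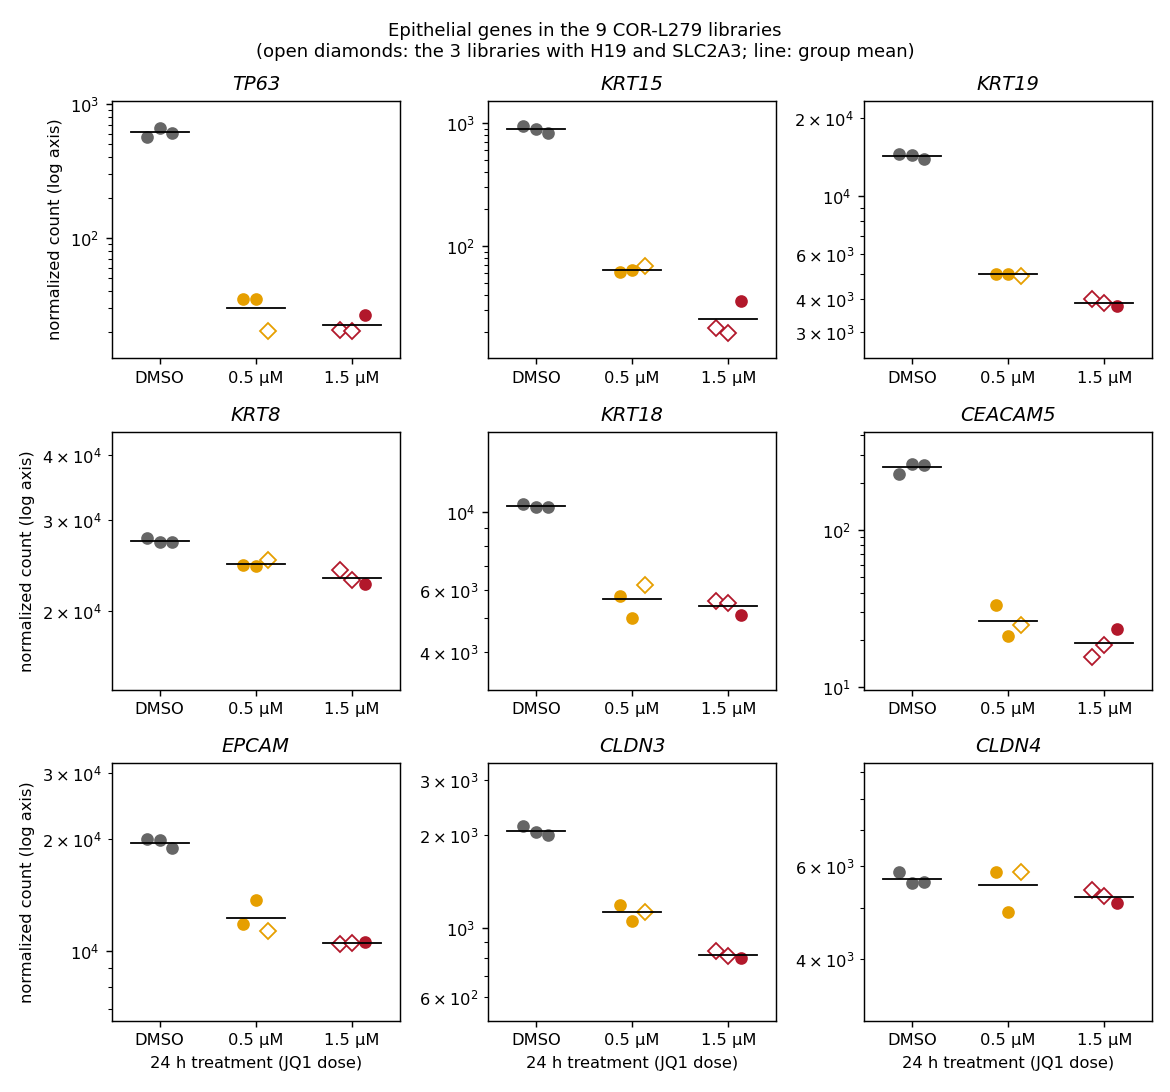
Normalized count of each gene (log axis, a range of its own per panel) in the 9 libraries by treatment, DMSO, 0.5 µM and 1.5 µM JQ1 for 24 h; points are libraries, lines are group means of 3, and open diamonds are the 3 libraries that hold H19 and SLC2A3. TP63, KRT15 and CEACAM5 drop by more than 10-fold at 1.5 µM, whereas CLDN4 keeps 92.7% of its DMSO mean.

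TP63 (ENSG00000073282.8) encodes p63, the transcription factor that basal and squamous epithelia depend on. Its normalized counts were 569, 659 and 612 in DMSO, 35.3, 35.2 and 20.3 at 0.5 µM, and 20.6, 20.4 and 26.7 at 1.5 µM. Every JQ1 library lay far below every DMSO library, and the doses overlapped. The fold change was −4.34 on the log2 scale at 0.5 µM and −4.71 at 1.5 µM (SE 0.22 each), which left 4.94% and 3.68% of the DMSO mean. In bulk RNA, fewer cells with the transcript and less transcript per cell cannot be told apart, here and for all genes below. The JQ1 values rest on 18 to 34 reads per library, and the deposited values do not separate the long from the N-terminally truncated forms of p63. Without the 3 libraries that hold H19, the changes were −4.08 and −4.47.

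KRT15 (ENSG00000171346.9), a type I keratin of basal cells, had 949, 892 and 826 normalized counts in DMSO, 61.2, 63.4 and 68.7 at 0.5 µM, and 21.6, 19.5 and 35.9 at 1.5 µM. The 3 groups did not overlap, and the 1.5 µM library without H19 was the highest of its group. The change was −3.76 (SE 0.20) at 0.5 µM and −5.11 (SE 0.20) at 1.5 µM, the most negative value among the 9 genes at that dose. Means at 0.5 and 1.5 µM were 7.25% and 2.89% of the DMSO mean. With the 3 libraries left out the change at 1.5 µM was −4.59.

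CEACAM5 (ENSG00000105388.10) encodes carcinoembryonic antigen, a glycoprotein of gut and tumour epithelium and a serum tumour marker. It was the lowest of the 9 in mean normalized counts in each group, at 227, 262 and 259 normalized counts in DMSO, 33.2, 21.1 and 24.8 at 0.5 µM, and 15.5, 18.6 and 23.6 at 1.5 µM. JQ1 libraries were all below DMSO, and the doses overlapped. The log2 fold changes were −3.21 and −3.65 (SE 0.22 each), with 10.6% and 7.71% of the mean left at 0.5 and 1.5 µM and 15 to 32 reads behind each JQ1 value. The same changes were −3.18 and −3.34 without the 3 H19 libraries. As log2(FPKM + 0.1) the changes of the 3 rarest transcripts were smaller, at −2.37 and −2.92 for CEACAM5, −3.46 and −3.53 for TP63, and −3.69 and −4.36 for KRT15 at 0.5 and 1.5 µM. The offset of 0.1 is about as large as the 1.5 µM means of CEACAM5 (0.110 FPKM) and TP63 (0.107 FPKM). An offset of this size makes such changes smaller, and its share in the difference from the normalized counts was not tested.

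The simple-epithelium keratins did not move as 1 block. KRT19 (ENSG00000171345.9), a type I chain found in ducts and airway, had 14608, 14469 and 13894 normalized counts in DMSO, 5025, 5023 and 4937 at 0.5 µM, and 4002, 3862 and 3780.3 at 1.5 µM. Its 3 groups did not overlap, with 34.9% and 27.1% of the DMSO mean left, a log2 change of −1.52 and −1.88 (SE 0.033 each). KRT18 (ENSG00000111057.6), the usual type I partner of KRT8, had 10545, 10346 and 10344 in DMSO, 5746, 4987 and 6189 at 0.5 µM, and 5557, 5495 and 5089 at 1.5 µM. It lost about as much at either dose, with 54.2% and 51.7% left and overlapping doses (−0.89 and −0.95, SE 0.068). KRT8 (ENSG00000170421.7), the type II chain that both pair with, had 27659, 27130.2 and 27181 in DMSO, 24467, 24461 and 25041 at 0.5 µM, and 23965, 22897 and 22562 at 1.5 µM. All JQ1 libraries were below DMSO, but 90.2% and 84.7% of the mean remained (−0.15 and −0.24, SE 0.030). Leaving out the 3 libraries gave −1.51 and −1.92 for KRT19, −0.96 and −1.03 for KRT18 and −0.16 and −0.28 for KRT8.

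The balance of the keratin pairs shifted with this. Per transcript length, KRT19 was at 0.684 ± 0.017 of KRT8 in DMSO, 0.265 ± 0.0058 at 0.5 µM and 0.221 ± 0.0011 at 1.5 µM (ratio of FPKM, SD, n = 3). KRT18 was at 0.446 ± 0.0042 of KRT8 in DMSO, 0.273 ± 0.023 at 0.5 µM and 0.277 ± 0.0085 at 1.5 µM. No JQ1 library reached the DMSO ratios. These keratins have many processed pseudogenes, and reads may be split between copies. The 6 KRT8, 4 KRT18 and 1 KRT19 pseudogenes in the table held at most 4.46%, 3.23% and 1.20% of their parent's value in any library, and adding them gave log2 ratios of the group means of −0.24, −0.92 and −1.89 at 1.5 µM. KRT8 and KRT18 overlap on opposite strands in RefSeq, and the sources used here do not say whether the counting was strand-specific, which leaves the values of this pair uncertain.

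EPCAM (ENSG00000119888.6), a homophilic adhesion molecule of nearly all simple epithelia, had 19887, 19793 and 18825 normalized counts in DMSO, 11823, 13669 and 11326 at 0.5 µM, and 10416, 10539 and 10599 at 1.5 µM. The 3 groups did not overlap, and the highest JQ1 library was replicate 2 at 0.5 µM. Means were 62.9% and 53.9% of the DMSO mean at 0.5 and 1.5 µM (−0.67 and −0.89, SE 0.059), and without the 3 H19 libraries the changes were −0.62 and −0.88.

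CLDN3 and CLDN4 are tight junction claudins encoded side by side on chromosome 7. CLDN3 (ENSG00000165215.5) had 2132, 2040.3 and 2006 normalized counts in DMSO, 1186, 1055 and 1129 at 0.5 µM, and 846, 810.2 and 803 at 1.5 µM. Each dose was clear of the next, with 54.5% and 39.8% of the mean left (−0.88 and −1.33, SE 0.052). CLDN4 (ENSG00000189143.8) had 5844, 5560.4 and 5587 in DMSO, 5836, 4902 and 5829 at 0.5 µM, and 5391, 5251 and 5103 at 1.5 µM. At 0.5 µM 2 of its 3 libraries were within the DMSO range, and at 1.5 µM all were just below it, with 97.5% and 92.7% of the mean left (−0.04 and −0.11, SE 0.062). Without replicate 2 at 0.5 µM, the lowest library, the change of CLDN4 at that dose was 0.04. The ratio of CLDN3 to CLDN4 per transcript length was 0.560 ± 0.0055 in DMSO, 0.319 ± 0.018 at 0.5 µM and 0.245 ± 0.0021 at 1.5 µM (FPKM, SD, n = 3), and the groups did not overlap. With the 3 H19 libraries left out, CLDN3 changed by −0.88 and −1.36 and CLDN4 by −0.08 and −0.15.

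The order of levels per transcript length changed by a swap of KRT19 with KRT18 and of TP63 with CEACAM5. In DMSO the mean FPKM were 255 for KRT8, 220.0 for EPCAM, 174 for KRT19, 114 for KRT18, 48.4 for CLDN4, 27.1 for CLDN3, 8.55 for KRT15, 2.27 for TP63 and 1.47 for CEACAM5, with no overlap between neighbours in this order. At 0.5 µM KRT18 at 60.9 FPKM and KRT19 overlapped, as did CEACAM5 at 0.213 and TP63 at 0.117. At 1.5 µM KRT19 at 45.4 FPKM was below KRT18, which it exceeded in DMSO, and overlapped CLDN4 at 42.4, and CEACAM5 at 0.110 overlapped TP63 at 0.107. KRT8 and EPCAM were first and second in all 3 groups.

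**Figure D2:**
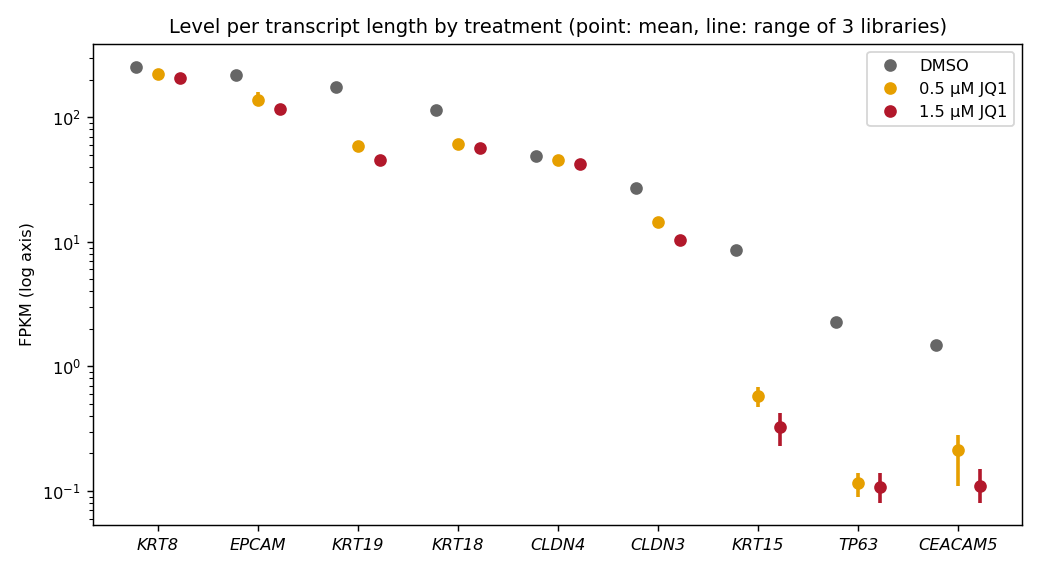
FPKM (log axis) of the 9 genes, ordered by their level in DMSO; points are means of 3 libraries, vertical lines the range of the 3, and colours the treatment (DMSO, 0.5 µM, 1.5 µM JQ1). KRT8, EPCAM, KRT19 and KRT18 stay at 43.8 FPKM or more in every library, whereas KRT15, TP63 and CEACAM5 are below 1 FPKM in both JQ1 groups.

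RefSeq promoter windows (GRCh38.p14, the 250 bases before the annotated start) matched 5 of the 9 genes, TP63, KRT8, CEACAM5, CLDN3 and CLDN4. Those of CLDN3 and CLDN4 are shown because these neighbours changed by different amounts, and those of TP63 and KRT8 because they belong to one of the largest and one of the smallest changes. The TP63 window lies at the upstream start of the gene, not at the internal start of the truncated forms. Capitals mark matches on either strand to 3 motifs, the E-box CANNTG bound by basic helix-loop-helix factors, the GC box GGGCGG and the AP-1 site TGANTCA; none of the matches overlap.
TP63, chr3:189631139-189631388, plus strand: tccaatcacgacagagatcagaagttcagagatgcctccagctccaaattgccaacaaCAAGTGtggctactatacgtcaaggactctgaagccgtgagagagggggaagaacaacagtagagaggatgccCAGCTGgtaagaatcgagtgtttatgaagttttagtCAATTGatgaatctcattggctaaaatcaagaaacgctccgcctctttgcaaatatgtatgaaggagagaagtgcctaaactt
KRT8, chr12:52926470-52926719, minus strand: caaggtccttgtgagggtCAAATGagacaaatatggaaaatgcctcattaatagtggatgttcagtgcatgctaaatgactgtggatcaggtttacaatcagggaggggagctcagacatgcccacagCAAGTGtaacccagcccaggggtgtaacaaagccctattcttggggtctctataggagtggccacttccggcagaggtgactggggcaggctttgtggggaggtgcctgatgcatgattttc
CLDN3, chr7:73770271-73770520, minus strand: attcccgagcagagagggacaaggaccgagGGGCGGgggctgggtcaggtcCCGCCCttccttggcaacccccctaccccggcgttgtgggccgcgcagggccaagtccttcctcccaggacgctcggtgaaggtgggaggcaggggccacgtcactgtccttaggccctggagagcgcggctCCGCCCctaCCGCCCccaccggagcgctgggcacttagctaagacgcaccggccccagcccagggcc
CLDN4, chr7:73830746-73830995, plus strand: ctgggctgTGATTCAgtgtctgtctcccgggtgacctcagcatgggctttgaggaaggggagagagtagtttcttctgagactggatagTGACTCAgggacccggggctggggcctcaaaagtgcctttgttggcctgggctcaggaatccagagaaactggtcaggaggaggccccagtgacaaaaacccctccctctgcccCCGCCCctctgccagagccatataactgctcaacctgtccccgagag
TP63 holds 3 E-boxes and KRT8 holds 2, whereas CLDN3 and CLDN4 hold 0, and 62.2% of all 27303 RefSeq promoter windows of this length hold at least 1. CLDN3 holds 4 GC boxes and CLDN4 holds 1 (42.3% of all windows), and CLDN4 alone of the 5 holds AP-1 sites, 2 of them (6.60% of all windows). The E-box form CAGATG and the TATA box TATAAA are in none of the 5 windows and in 12.2% and 11.1% of all. Bases G and C make up 71.6% of the CLDN3 window, 58.8% of the CLDN4 window, 53.2% for CEACAM5, 50.4% for KRT8 and 44.0% for TP63, and the quartiles of all windows are 46.0% and 67.6%. A match describes the letters of the window only.

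In normalized counts the step between the doses was largest for KRT15 among the 9 genes. The step is computed from the same values by which the 9 genes were picked, so it is given as a description, with no test. KRT15 averaged 25.7 ± 8.9 normalized counts at 1.5 µM and 64.4 ± 3.9 at 0.5 µM (SD, n = 3 each), a log2 difference of −1.34 (SE 0.20). Its size moved with the processing, to −0.78 without the 3 H19 libraries and −0.67 as log2(FPKM + 0.1). The mean FPKM of KRT15 were 0.573 at 0.5 µM and 0.327 at 1.5 µM. How much of the smaller FPKM difference comes from the offset of 0.1 was not tested. CLDN3 averaged 819.9 ± 23 at 1.5 µM and 1123 ± 65 at 0.5 µM, a difference of −0.45 (SE 0.052), and KRT19 averaged 3881 ± 112 and 4995 ± 50, a difference of −0.36 (SE 0.033). EPCAM averaged 10518 ± 93 at 1.5 µM and 12272 ± 1234 at 0.5 µM (−0.22, SE 0.059). Leaving out the 3 H19 libraries, which leaves a single library at 1.5 µM, gave −0.48 for CLDN3, −0.41 for KRT19 and −0.26 for EPCAM.

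All libraries at 1.5 µM were below all at 0.5 µM for 5 of the 9 genes, KRT15, KRT19, KRT8, EPCAM and CLDN3, and for 18.3% of all genes tested. Across the table, 8.09% of genes passed the limma test as lower at 1.5 than at 0.5 µM and 4.66% as higher. TP63 and CEACAM5 differed by −0.38 and −0.43 with overlapping libraries and an SE of 0.22 each. KRT8, KRT18 and CLDN4 differed by −0.09, −0.06 and −0.07. With replicate 2 at 0.5 µM left out, KRT18 and CLDN4 differed by −0.15 each, and with replicate 3 at 0.5 µM left out TP63 differed by −0.63.

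**Figure D3:**
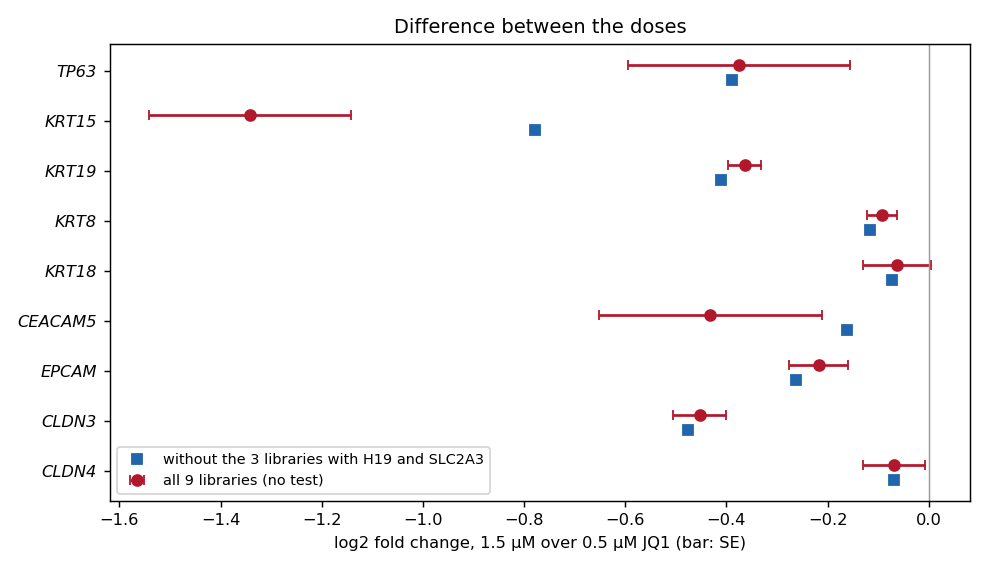
Log2 fold change of 1.5 µM over 0.5 µM JQ1 (normalized count + 1) for the 9 genes; circles with SE bars are from all 9 libraries, with no test, and squares, without error bars, are from the 6 libraries without H19 and SLC2A3. KRT15 lies farthest left at −1.34, and its square is at −0.78.

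Genes around the 9 were described through lists of their families and structures, with the limma test against DMSO for each gene and no test of a list. Over all genes tested, 35.3% were higher and 34.7% lower at 0.5 µM, and 36.9% higher and 36.2% lower at 1.5 µM. Of 51 other keratins listed, 9 were in the table. KRT3, KRT4 and KRT81 were under 10 normalized counts in every JQ1 library and entered the table's test through DMSO, so they could be seen to fall only and are not counted. Of the other 6, 4 fell and 0 rose at 0.5 µM, and 5 fell and 0 rose at 1.5 µM, with medians of −1.30 and −1.18. KRT7, a type II keratin of simple epithelium named here after its values were seen, averaged 1637 ± 34 in DMSO, 662 ± 68 at 0.5 µM and 476 ± 75 at 1.5 µM (SD, n = 3; log2 change −1.31 at 0.5 µM and −1.79 at 1.5 µM, limma adjusted p = 1.88e-06 and 1.22e-07). KRT81 and KRT86 are near-identical hair keratins whose reads may be shared. They averaged 3.04 and 8.15 normalized counts at 1.5 µM, against 243 and 208 in DMSO (log2 change −6.05 and −4.53; limma adjusted p = 1.83e-06 for KRT86), and no test is given for KRT81. KRT80, a type II keratin of many epithelia, averaged 739 ± 25 in DMSO, 232 ± 18 at 0.5 µM and 186 ± 20 at 1.5 µM (SD, n = 3; log2 change −1.67 at 0.5 µM and −1.99 at 1.5 µM, limma adjusted p = 9.99e-08 and 1.73e-08). KRT23 was not called by limma at either dose (−1.29 at 0.5 µM and −0.16 at 1.5 µM), and without the 3 H19 libraries its log2 changes were −2.80 and −4.18. It was at 59.7 to 69.1 in those 3, 0 to 2.35 in the remaining JQ1 libraries, and 14.8 to 18.8 under DMSO. With the 3 left out, KRT23 reached 10 in DMSO only and could be seen to fall only, so no test is given for that setting.

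The squamous and basal list was split. Of 48 genes, 25 were in the table, among them LAMB3 and SERPINB13, which were under 10 in every JQ1 library and are not counted. Of the other 23, 13 fell and 8 rose at 0.5 µM, and 13 fell and 9 rose at 1.5 µM, with medians of −0.35 and −0.49. COL17A1, the transmembrane collagen of the hemidesmosome that anchors basal cells to their matrix, averaged 1117 ± 30 normalized counts in DMSO, 71.7 ± 0.83 at 0.5 µM and 58.5 ± 8.0 at 1.5 µM (SD, n = 3; log2 change −3.94 at 0.5 µM and −4.24 at 1.5 µM, limma adjusted p = 1.36e-09 and 3.39e-10). S100A2, a calcium-binding protein of basal keratinocytes, averaged 248, 68.5 and 68.4 in the same order (log2 change −1.85 at 0.5 µM and −1.84 at 1.5 µM, limma adjusted p = 1.39e-06 and 1.07e-06). Among the genes that rose at 1.5 µM were the transcription factors KLF4 (1.40), KLF5 (0.69), SOX2 (0.52), TP73 (0.31) and TFAP2A (0.26). The transcription factors GRHL3 and PITX1 of the same list fell (−1.41 and −0.68). These 7 were named after their values were seen. TP73, the p53 family member closest to TP63, averaged 2122 ± 55 normalized counts in DMSO, 2492 ± 236 at 0.5 µM and 2632 ± 60 at 1.5 µM (SD, n = 3). Its call at 0.5 µM was lost without the 3 H19 libraries (0.23 with and 0.18 without them, limma adjusted p = 0.00726 and 0.0689).

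**Figure D4:**
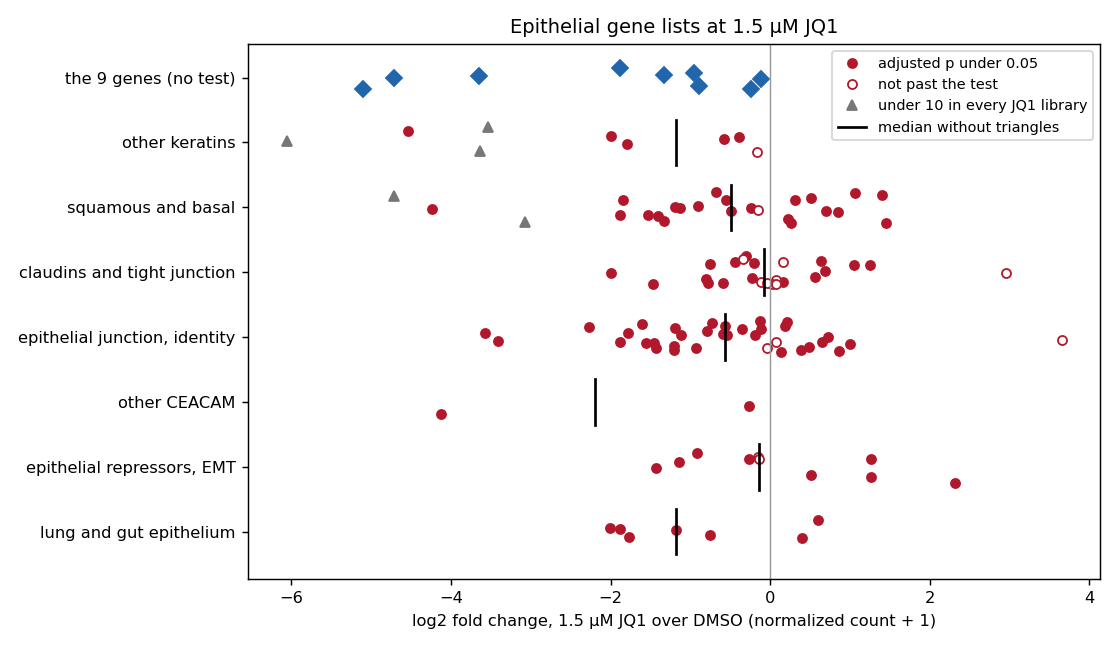
Log2 fold change of 1.5 µM JQ1 over DMSO (normalized count + 1) for the 9 genes (diamonds, no test) and for the tested genes of 7 lists that leave them out; filled circles have a limma adjusted p under 0.05, open circles do not, triangles are genes under 10 normalized counts in every JQ1 library, and vertical bars are list medians without the triangles. Keratins lie left of zero, with a median of −1.18, whereas the tight junction list is centred near zero at −0.08.

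Tight junction genes were mixed, as CLDN3 and CLDN4 were. Of 37 listed, 24 were in the table, and 11 fell and 4 rose at 0.5 µM, 10 fell and 6 rose at 1.5 µM, with medians of −0.14 and −0.08. CLDN7, a claudin that binds EPCAM, averaged 6261 ± 147 normalized counts in DMSO, 2116 ± 159 at 0.5 µM and 1575 ± 68 at 1.5 µM (SD, n = 3; log2 change −1.57 at 0.5 µM and −1.99 at 1.5 µM, limma adjusted p = 4.79e-09 and 5.72e-10). MARVELD3, a tight junction membrane protein, fell by 1.25 at 0.5 µM and 1.47 at 1.5 µM on the log2 scale (limma adjusted p = 1.27e-06 and 2.64e-07). CGNL1, which links junctions to the cytoskeleton, averaged 84.0 in DMSO, 179 at 0.5 µM and 200 at 1.5 µM (log2 change 1.06 at 0.5 µM and 1.25 at 1.5 µM, limma adjusted p = 0.000123 and 2.98e-05). CLDN6, a claudin of embryonic epithelium, was not called by limma (log2 change 2.95 at 1.5 µM). Its values split by library, at 130 to 167 normalized counts in the 3 with H19, while every library outside these 3 held 6.22 or less. It passed the filter through those 3 alone and could only be seen to rise, so its adjusted p-values are left out. At 1.5 µM its log2 change on recovered reads was 4.01 in edgeR and 4.04 in DESeq2. In limma without 1.5 µM replicate 3 it was 4.38, and at 0.5 µM DESeq2 gave 3.37. CLDN6 was called in these settings, and by limma at 1.5 µM without 0.5 µM replicate 2 or 3. These calls rest on the split and are not taken as an effect of JQ1.

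Among 38 genes of other epithelial junctions and identity, 35 were in the table, and 22 fell and 8 rose at 0.5 µM, 23 fell and 9 rose at 1.5 µM, with medians of −0.48 and −0.56. TSPAN1, a tetraspanin, averaged 1586 ± 67 normalized counts in DMSO, 198 ± 12 at 0.5 µM and 133 ± 18 at 1.5 µM (SD, n = 3; log2 change −3.00 at 0.5 µM and −3.58 at 1.5 µM, limma adjusted p = 3.54e-09 and 5.92e-10). LAD1, a filament protein of the basement membrane zone, fell by 2.96 at 0.5 µM and 3.41 at 1.5 µM on the log2 scale, and MUC1, an apical mucin, by 1.68 and 2.26. Limma adjusted p-values at 1.5 µM were 1.38e-10 and 1.47e-07. E-cadherin (CDH1) averaged 3133 ± 51 in DMSO, 3191 ± 164 at 0.5 µM and 3308 ± 122 at 1.5 µM and was not called at either dose (log2 change 0.03 at 0.5 µM and 0.08 at 1.5 µM, limma adjusted p = 0.627 and 0.136). The desmosomal cadherin DSC2 was not called by limma at 1.5 µM (log2 change 3.65). It had 48.8 to 84.5 normalized counts in the 3 H19 libraries, 0 in the other JQ1 libraries and at most 0.778 under DMSO. DSC2 entered the test through those 3 libraries and could be seen to rise only, so no adjusted p is given. Calls by edgeR and by limma without 1.5 µM replicate 3 rest on this split and are not read as an effect of JQ1. CDH1, DSC2 and CLDN6 were named after their values were seen.

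Of 11 other CEACAM genes 2 were in the table, and both fell at each dose. CEACAM6, a lipid-anchored adhesion molecule like CEACAM5 and its next protein-coding gene on chromosome 19, averaged 474 ± 45 normalized counts in DMSO, 47.7 ± 12 at 0.5 µM and 26.9 ± 7.8 at 1.5 µM (SD, n = 3; log2 change −3.31 at 0.5 µM and −4.12 at 1.5 µM, limma adjusted p = 3.13e-07 and 4.13e-08). CEACAM19 changed by only −0.20 and −0.27, and its call at 0.5 µM (limma adjusted p = 0.0157) was lost without DMSO replicate 2 (0.0554), without DMSO replicate 3 (0.0661) and without the 3 H19 libraries (0.0772).

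The genes next to the 9 in RefSeq order gave further pairs, chosen by position once the values of the 9 were known. TPRG1, the protein-coding gene beside TP63 on chromosome 3, averaged 157 ± 16 normalized counts in DMSO, 7.82 ± 1.4 at 0.5 µM and 5.64 ± 3.1 at 1.5 µM (SD, n = 3; log2 change −4.18 at 0.5 µM and −4.67 at 1.5 µM). Every JQ1 library had under 10, so TPRG1 entered through DMSO, could be seen to fall only, and is given no test. KRT15 and KRT19 are themselves neighbours on chromosome 17, with the unequal changes given above. Beside EPCAM on chromosome 2, CALM2 rose by 0.15 at 1.5 µM (limma adjusted p = 0.00111). ABHD11, beside CLDN3, rose by 0.49 at 1.5 µM (limma adjusted p = 9.84e-07), and EIF4B, beside KRT18 on chromosome 12, fell by 0.25 (limma adjusted p = 7.18e-06).

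Genes most like each of the 9 were found among 14024 others as those with the smallest root mean square difference of log2 values, relative to the DMSO mean, over the 9 libraries. For TP63 they were MLKL, the effector of necroptosis, and the zinc transporter SLC30A8 (differences of 0.274 and 0.324). KRT15 was closest to the bombesin receptor BRS3 (0.191). KRT19 lay within 0.0190 of the somatostatin receptor SSTR2 and 0.0396 of the small heat shock protein HSPB1. CEACAM5 was nearest to FAM26D and TSPAN1 (0.168 and 0.201). EPCAM was nearest to the chaperone HSP90B1 and PA2G4 (0.0298 and 0.0299), which shared its higher value in replicate 2 at 0.5 µM. For KRT8 the nearest were PTOV1 and KCTD2 (0.0184 and 0.0196), for KRT18 C1orf216 and MYBBP1A (0.0535 and 0.0595), for CLDN3 ASIC1 and CEBPB (0.0465 and 0.0476), and for CLDN4 CDKAL1 and MARCKS (0.0294 and 0.0320). None of the 9 had another of the 9 as its nearest gene, and the closest pair among them was KRT8 with CLDN4, at 0.117.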

How the data were processed

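Total RNA of 9 COR-L279 libraries was sequenced, and per the labels' protocols the libraries were made with a stranded TruSeq kit. The submitters' processing notes list hg19 as the build, with cutadapt, STAR and RSEM as tools. The sources used here give no versions of these and no strand setting. The main values are the normalized counts deposited by the authors, a signal that the table's title calls normalized by DESeq2. Scaled by a single factor for each library, 100% of these values were whole reads (tolerance 0.001). The deposited FPKM table (57820 genes, 2 decimals) served for levels per transcript length, for genes outside the main table and as an alternative.

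Genes with at least 10 normalized counts in at least 3 libraries (17514 of 17518) were tested with limma 3.58.1 in R 4.3.3, with a mean-variance trend, on log2(value + 1), fitted once to the 9 libraries without a replicate block. Tests were two-sided, p-values were adjusted by Benjamini-Hochberg over all genes within a comparison, and the threshold was 0.05. Fold changes of low genes are understated on this scale. The 9 genes carry no test, against DMSO or between the doses, since they were picked on these values. Replicate libraries differed by more than sampling noise (chi-square per degree of freedom of 3.4 to 31).

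Named are the 9 genes, the 3 genes per list that changed most among those called at 1.5 µM (mean of 20 or more), and the 2 genes most like each of the 9 with a mean of at least 50; others named outside this rule are said to be so or were picked as a count of 5 or fewer. The members, lists and the choice of the 3 libraries left out were made with earlier results of these data known. Where a symbol had several rows, the row with the highest mean was used. The alternatives were pseudocounts of 0.1 and 5, no filter or a minimum of 50, TMM and upper-quartile scaling, log2(FPKM + 0.1) for genes with 0.5 FPKM or more in 3 libraries, recovered reads in edgeR 4.0.16 or DESeq2 1.42.0, a replicate block, each library left out, and the 3 libraries with H19 and SLC2A3 left out. Promoter windows come from RefSeq, and gene positions in hg19 were not used here. Results for some genes that the rule names are not reported here.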

Additional observations from a re-analysis of the deposited data

How the results depend on the processing

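Of 360 values of the 9 genes against DMSO over 20 alternatives, 343 moved by less than the spread between libraries and 17 by more, and 1 changed sign (CLDN4 at 0.5 µM, 0.04 without replicate 2 at 0.5 µM). The 343 include values that could not move. The filter settings, the replicate block and leaving out a library of the other dose do not change these fold changes. Depth limits TP63, KRT15 and CEACAM5 in JQ1, which rest on at most 61 reads a library. The number of genes that differed between the doses was the least stable: 2233 became 892 with FPKM values, 48 without the 3 libraries with H19 and SLC2A3, and 1002 to 3217 with 1 library left out (1002, 1023 and 1327 without a 1.5 µM replicate, 1473 without DMSO replicate 2). The share of higher genes among them was 19.5% with FPKM values and 0% without the 3 libraries, against 36.5% with all 9 libraries. It was 24.1% and 24.3% without 1.5 µM replicates 2 and 3. The 2 CEACAM calls at 0.5 µM became 1 without the 3 libraries and 1 to 2 with 1 library left out. edgeR on the recovered reads called 12240, 12897 and 2283 genes at 0.5 µM, at 1.5 µM and between the doses, and DESeq2 12161, 12808 and 2853, against 12255, 12806 and 2233 in limma. Replicate numbers did not pair the libraries (correlations of same-numbered libraries between −0.385 and 0.131), and a fit with the replicate block called 12329, 12852 and 2030 genes. The causes of these changes were not tested.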

Other observations

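Repressors of epithelial genes and mesenchymal genes, a list read with earlier results known, were split. Of 13 listed, 10 were in the table, 4 of them rose and 4 fell at each dose, and their median change was 0.04 at 0.5 µM and −0.14 at 1.5 µM. ZEB1, a repressor of CDH1 and EPCAM in other carcinoma cells, averaged 363 ± 33 normalized counts in DMSO, 785 ± 41 at 0.5 µM and 878 ± 85 at 1.5 µM (SD, n = 3; log2 change 1.11 at 0.5 µM and 1.27 at 1.5 µM, limma adjusted p = 1.24e-06 and 3.19e-07). SNAI3 rose by 2.06 and 2.32 at 0.5 and 1.5 µM on the log2 scale (limma adjusted p = 0.000231 and 8.21e-05), while SNAI1, the repressor Snail, averaged 200 ± 31 in DMSO, 86.9 ± 15 at 0.5 µM and 73.4 ± 11 at 1.5 µM (limma adjusted p = 0.000118 and 2.5e-05).

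Of 26 genes of lung and gut epithelium 7 were in the table, 5 of them fell and 2 rose at each dose, and their median changes were −1.05 at 0.5 µM and −1.18 at 1.5 µM. FOXA2, a transcription factor of endoderm, averaged 1062 ± 28 normalized counts in DMSO, 300.5 ± 8.1 at 0.5 µM and 264 ± 17 at 1.5 µM (SD, n = 3; log2 change −1.82 at 0.5 µM and −2.01 at 1.5 µM, limma adjusted p = 5.18e-09 and 1.37e-09). AGER and HOPX, genes of the flat alveolar cell, fell by 1.89 and 1.77 at 1.5 µM on the log2 scale (limma adjusted p = 5.7e-08 and 5.95e-08). The 2 that rose were FOXA1 (0.60 at 1.5 µM) and NKX2-1 (0.39), both lineage factors of lung epithelium.

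Among genes of adherent non-neuroendocrine cells, 14 of 18 in the table fell and 2 rose at each dose, and median changes were −1.05 and −1.11 at 0.5 and 1.5 µM. S100A11, a calcium-binding protein, fell by 2.45 at 1.5 µM (limma adjusted p = 8e-09). EPAS1, a hypoxia-inducible factor, rose by 4.25 at 1.5 µM (limma adjusted p = 0.000155), with 427 to 584 normalized counts in the 3 libraries that hold H19, 82.0 to 131 in the remaining JQ1 libraries, and 12.4 to 21.3 under DMSO. MYOF also split by library, at 98.0 to 110.3, 14.4 to 27.0 and 200 to 276 normalized counts in the same order. Of the other marker lists, the 5 fibroblast genes in the table had 2 that fell (COL6A3 and COL1A2) and 0 that rose at each dose, the leukocyte list had 1 of 10 in the table (CD14, which fell), and the 7 SCLC and neuroendocrine genes had 3 that fell at 1.5 µM and 2 that rose, NCAM1 (0.67) and NEUROD1 (0.47).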
